A study of Rattus norvegicus with 8 samples.

Results

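Branched-chain amino acid breakdown was followed through 4 genes, Bcat2, Bckdha, Bckdhb and Bckdk, in rat soleus, a postural hindlimb muscle rich in slow fibres. The members were all probe sets whose only gene symbol in the platform annotation is one of these 4. This gave 5 of the 8740 probe sets on the array, 1 each for Bcat2, Bckdhb and Bckdk and 2 for Bckdha, so 4 of 4736 genes with a name. All 5 passed the filter on low signal that left 5244 probe sets to test. The study measured RNA on 8 Affymetrix arrays, each loaded with a pool of soleus RNA from 8 to 10 female rats. Walked rats (2 pools) had 12 h of hindlimb unloading and then 2 h of treadmill walking, given as 30 min bouts with 30 min of cage activity between them over 4 h. Unloaded rats (3 pools) could not stand on the hindlimbs during 12 h. Control rats (3 pools) moved freely in the cage for 12 h. The labels used here give neither strain nor age. The walked muscles were taken after the further 4 h, so walking and the time that passed cannot be told apart in comparisons with the other groups. Pooling averages over rats, so the spread between arrays of a group is that between pools.

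Leucine, isoleucine and valine are broken down largely outside the liver, and skeletal muscle takes a large part in their first step. In mitochondria Bcat2, the mitochondrial branched-chain aminotransferase, moves the amino group of all 3 onto 2-oxoglutarate and leaves a branched-chain keto acid. The branched-chain keto acid dehydrogenase complex then removes the carboxyl group and commits the carbon skeleton to oxidation. Bckdha and Bckdhb encode the alpha and beta subunits of E1, the decarboxylating component of that complex. Bckdk is the kinase that phosphorylates the E1 alpha subunit and so switches the complex off.

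Every value below is a MAS5 signal in arbitrary units unless it is given on the log2 scale. A probe set counts as called, risen or fallen where limma's adjusted p was under 0.05, with the adjustment by Benjamini-Hochberg over all 5244 tested probe sets. Signals of different probe sets are not compared, since probes differ in brightness. In whole muscle, fewer cells of a type and less RNA per cell cannot be told apart.

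The members that passed the test did so in the comparison of walked with control soleus, where Bcat2 and Bckdhb were both lower. Their promoters are shown because these are the member genes called there, though the calls were lost in several of the fits described below. RefSeq promoter windows of rat assembly GRCr8 were held for 3 of the 4 genes, with Bckdha the one not matched. Each window runs from 250 bases before the annotated transcript start to 50 bases after it, 5′ to 3′ on the plus strand. The Bcat2 window lies at chr1:105178889-105179188, and its start site is not the outermost one of the gene record. The Bckdhb window lies at chr8:93725027-93725326. Capitals mark matches, on either strand, to CACCC, the core of sites bound by Krüppel-like factors, to GGGCGG, the GC box, or to CCAAT.
Bcat2: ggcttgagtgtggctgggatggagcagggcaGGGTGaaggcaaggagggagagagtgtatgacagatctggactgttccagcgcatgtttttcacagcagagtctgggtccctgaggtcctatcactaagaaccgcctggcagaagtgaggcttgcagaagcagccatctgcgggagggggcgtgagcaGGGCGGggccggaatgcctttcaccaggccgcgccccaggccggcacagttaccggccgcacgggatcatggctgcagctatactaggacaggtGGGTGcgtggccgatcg
Bckdhb: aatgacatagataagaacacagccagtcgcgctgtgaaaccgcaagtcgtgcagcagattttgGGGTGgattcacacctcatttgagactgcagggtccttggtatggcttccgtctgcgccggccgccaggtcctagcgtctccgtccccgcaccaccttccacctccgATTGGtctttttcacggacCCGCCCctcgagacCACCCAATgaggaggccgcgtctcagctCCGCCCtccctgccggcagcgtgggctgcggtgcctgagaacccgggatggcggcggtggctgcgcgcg

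The Bcat2 window held 2 matches to CACCC, 1 to GGGCGG and 0 to CCAAT. The Bckdhb window held 2 matches to each of the 3 motifs, and 1 CACCC match overlaps 1 CCAAT match. Such matches are common. CACCC was found in 54.9% of 33469 promoter windows of this length, GGGCGG in 33.1% and CCAAT in 37.5%. They are letters in a window, and binding was not measured.

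Bcat2 had the larger log2 change of the called pair. Its probe set (U68417_at) gave signals of 137 and 88.5 in the walked pools, against 188, 292 and 237 in the control pools. Both walked values lay below every control value. The group means were 113 ± 34.0 (SD, n = 2) in walked and 239 ± 52.2 (n = 3) in control soleus, a log2 fold change of -1.10 ± 0.24 (SE, limma adjusted p = 0.0210), or 0.467 of the control level with a 95% confidence interval of -1.63 to -0.57 on the log2 scale.

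Bckdhb, the E1 beta subunit (probe set rc_AI168942_at), had signals of 199 and 195 in the walked pools, against 277, 332 and 358 in the control pools. The walked pools were nearly equal to each other and below all controls. The means were 197 ± 2.56 (SD, n = 2) in walked and 322 ± 41.2 (n = 3) in control soleus, a log2 fold change of -0.70 ± 0.16 (SE, limma adjusted p = 0.0271). This is 0.614 of the control level.

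Bckdha, the E1 alpha subunit, was not called. On its first probe set (J02827_at) the signals were 234 and 236 in the walked pools, against 216, 345 and 286 in the control pools. The groups overlap, because control pool 1 was lower than both walked pools. The log2 fold change was -0.24 ± 0.19 (limma adjusted p = 0.482). On the second probe set (J02827_g_at) the signals were 346 and 323 in the walked pools, against 340, 505 and 481 in the control pools. Here control pool 1 lay between the walked pools, and the log2 fold change was -0.38 ± 0.18 (limma adjusted p = 0.228), with a 95% confidence interval of -0.79 to 0.02. The probe sets carry the same sequence record in their names, so they are no independent measurements.

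Bckdk, the inhibitory kinase (M93271_at), was dim. Its mean signal of 26.5 over the 8 arrays stood just above the filter at 25.8. It had signals of 24.1 and 14.9 in the walked pools, against 22.5, 35.7 and 36.1 in the control pools, so the groups overlap. The log2 fold change was -0.69 ± 0.46 (limma adjusted p = 0.396), with a 95% confidence interval of -1.71 to 0.32, wide enough to hold both a large fall and a small rise.

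**Figure D1:**
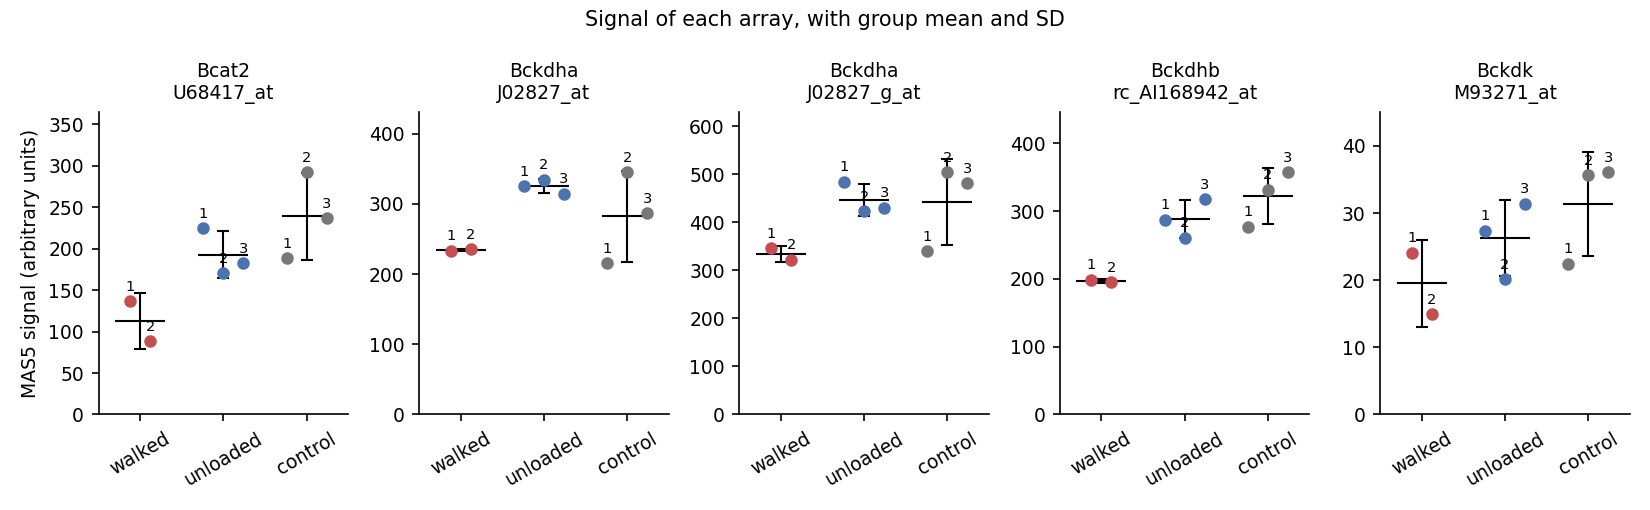
MAS5 signal (arbitrary units, linear axes from 0) of the 5 probe sets in each array of the walked, unloaded and control groups. Points are arrays with their pool number, and bars give the group mean and SD. Both walked pools lie below every control pool for Bcat2 and Bckdhb, and control pool 1 is the lowest control in all 5 panels.

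Of the 5 member probe sets, 2 were called in walked against control soleus, both lower. The background in this comparison was 9.08% of tested probe sets called in either direction and 4.61% called lower. All 5 had negative log2 fold changes, with a median of -0.69, against a median of -0.11 over all tested probe sets. The walked arrays lay wholly below the control arrays in the same 2 of 5, and in 27.6% of all tested probe sets. The calls were close to the threshold. The Bcat2 call was lost without control pool 2 (adjusted p = 0.0592) or walked pool 2 (0.184), and that of Bckdhb without control pool 2 (0.0723) or 3 (0.0610) or walked pool 1 (0.114) or 2 (0.144). Both were also lost with no filter on low signal (limma adjusted p = 0.0891 for Bcat2 and 0.0516 for Bckdhb), with no mean-variance trend (0.0609 and 0.0671) and in the fit blocked on pool number (0.0502 and 0.0689).

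**Figure D2:**
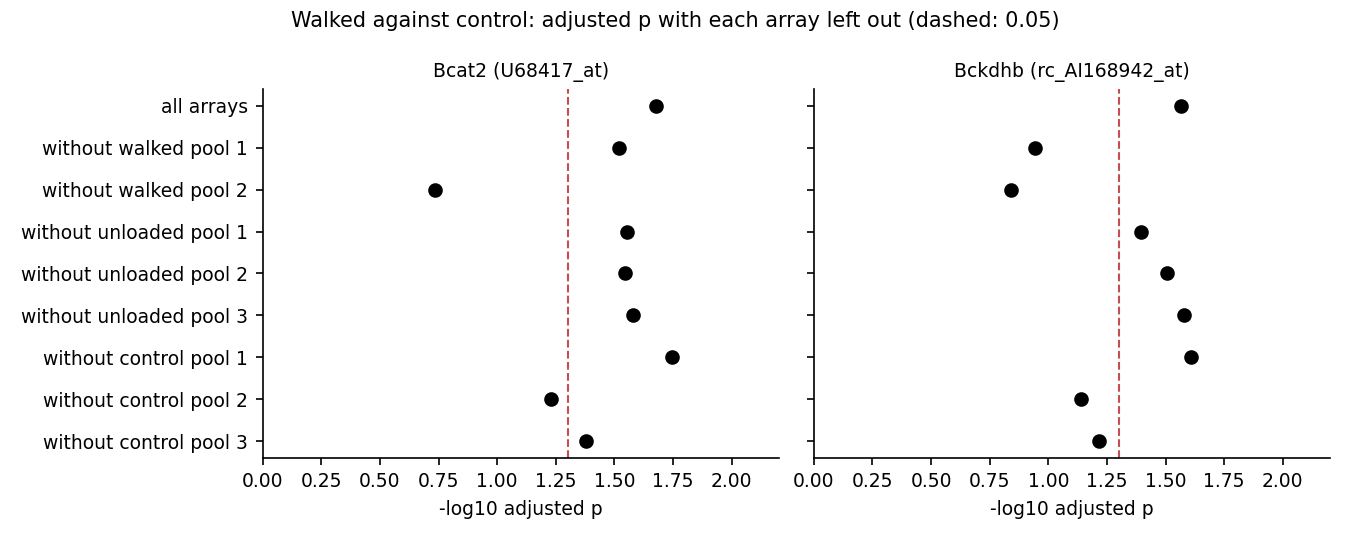
The -log10 of limma's adjusted p for Bcat2 and Bckdhb in walked against control soleus, with all arrays and with each array left out in turn. The dashed line marks 0.05. Bcat2 falls short of it without walked pool 2 or control pool 2, and Bckdhb without either walked pool or control pool 2 or 3.

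Walked against unloaded soleus asks what the walking period changed in muscle that had already been unloaded. Limma called 0 of the 5 member probe sets, and 4.20% of all tested probe sets in either direction. An unadjusted p under 0.05 was reached by 4 of the 5 and by 17.4% of all tested probe sets. The 4 probe sets of Bcat2, Bckdha and Bckdhb had both walked arrays below all 3 unloaded arrays, which was so for 21.8% of all tested probe sets. The median log2 fold change of the 5 was -0.47, against -0.05 over all.

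Bcat2 had 137 and 88.5 in the walked pools, against 224, 170 and 182 in the unloaded pools, with a log2 fold change of -0.80 ± 0.24 (limma adjusted p = 0.105). Walked pool 2 was the lowest of all. The log2 fold change lay between -1.11 and -0.48 when 1 array was left out, and was -0.48 without walked pool 2 (limma adjusted p = 0.528). Bckdhb had 199 and 195 in the walked pools, against 287, 261 and 318 in the unloaded pools, a log2 fold change of -0.55 ± 0.16 (limma adjusted p = 0.103).

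Bckdha, the E1 alpha subunit, had 234 and 236 in the walked pools, against 325, 335 and 315 in the unloaded pools on its first probe set. Both groups were tight and did not overlap, and the log2 fold change was -0.47 ± 0.19 (limma adjusted p = 0.231). On the second it had 346 and 323 in the walked pools, against 485, 423 and 431 in the unloaded pools (-0.42 ± 0.18, limma adjusted p = 0.272). Bckdk had 24.1 and 14.9 in the walked pools, against 27.4, 20.1 and 31.4 in the unloaded pools, with overlap and a log2 fold change of -0.45 ± 0.46 (limma adjusted p = 0.688).

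Unloaded against control soleus asks what 12 h off the hindlimbs changed. Limma called 0 of the 5 probe sets, and 7.30% of all tested probe sets. An unadjusted p under 0.05 was reached by 0 of the 5 and by 21.5% of all tested probe sets. The groups overlapped in all 5, and the share of all tested probe sets with such overlap was not counted. Bcat2 had 224, 170 and 182 in the unloaded pools, against 188, 292 and 237 in the control pools (log2 fold change -0.30 ± 0.22, limma adjusted p = 0.476). Bckdhb had 287, 261 and 318 in the unloaded pools, against 277, 332 and 358 in the control pools (-0.15 ± 0.15, limma adjusted p = 0.610). Bckdha was at 0.23 ± 0.17 on its first probe set and 0.03 ± 0.16 on its second, with every unloaded array inside the range of the control arrays on both. The sign of the second turned without control pool 1 (-0.15) or unloaded pool 1 (-0.03). Bckdk was at -0.25 ± 0.41 (limma adjusted p = 0.784). The 95% confidence intervals ran from -0.77 to 0.17 for Bcat2 and from -0.48 to 0.17 for Bckdhb, and neither excludes a change of moderate size after unloading. The 3 comparisons share arrays, since each group serves in 2 of them, and their values are therefore not independent.

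**Figure D3:**
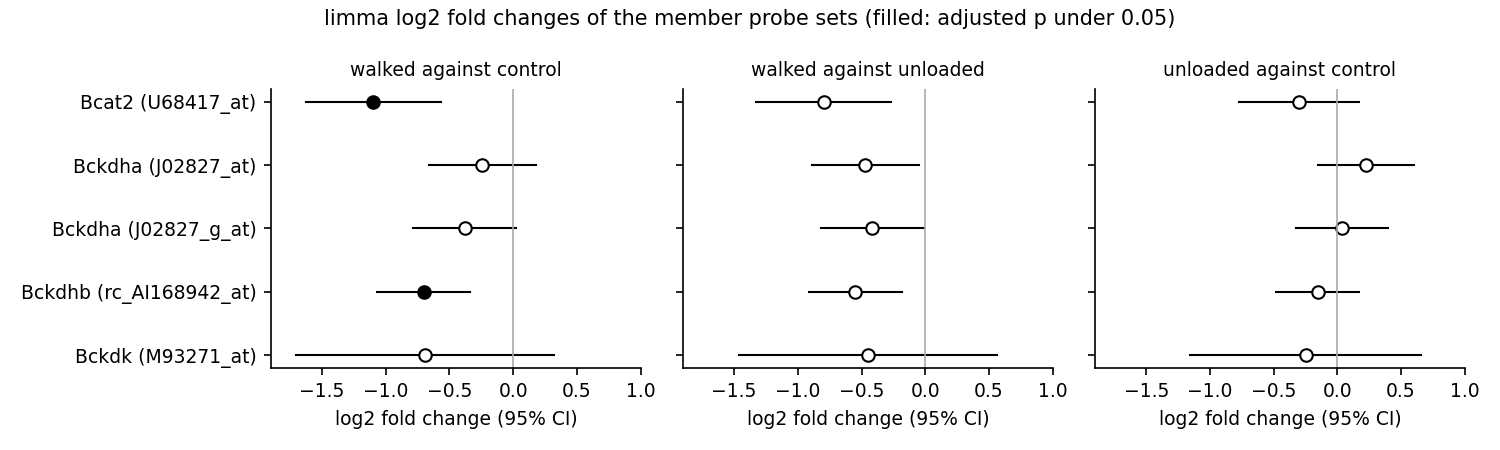
Log2 fold changes (points) with 95% confidence intervals (lines) of the 5 member probe sets in the 3 comparisons, from limma. Filled points have an adjusted p under 0.05. Only Bcat2 and Bckdhb in walked against control soleus are filled, at -1.10 and -0.70.

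Control pool 1 had the lowest signal of the 3 controls in all 5 member probe sets. That array was not dim as a whole, since its median signal was 42.4, against 40.5 and 38.8 in control pools 2 and 3. All arrays had also been scaled to the same trimmed mean. A difference taken within each array removes what the compared probe sets share in that array. This difference of log2 signals between Bcat2 and the mean of the Bckdha probe sets was -1.06 and -1.64 in the walked pools and -0.53, -0.51 and -0.65 in the control pools. The groups did not overlap (walked minus control -0.79, two-sided exact permutation p = 0.1, the smallest that 2 against 3 arrays allow, and 0.225 adjusted over 9 such tests). These within-array differences and their tests were added after the values were seen, so their p-values give no independent support. The unloaded pools, at -0.82, -1.14 and -1.01, also lay below all control pools (unloaded minus control -0.43, exact permutation p = 0.1, the smallest that 3 against 3 arrays allow, 0.225 adjusted). Walked and unloaded pools overlapped (-0.35, exact permutation p = 0.3, 0.338 adjusted). Walked pool 2 weighed on these values: without it the difference was -0.49 against control and -0.06 against unloaded soleus, and without walked pool 1 it was -1.08 and -0.65.

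Bckdhb against Bckdha, the partner subunits of E1, gave -0.52 and -0.50 in the walked pools and 0.03, -0.33 and -0.05 in the control pools. The groups did not overlap, and the change was -0.39 (exact permutation p = 0.2, 0.257 adjusted over 9 tests). The groups overlapped in walked against unloaded soleus (-0.11, exact permutation p = 0.7) and in unloaded against control soleus (-0.29, p = 0.2). Pdhb, the beta subunit of E1 in pyruvate dehydrogenase, a complex built on the same plan, served as a further partner. This choice too was made after the values were seen. Relative to Pdhb, Bckdhb was at -0.85 in walked against control soleus and at -0.56 in walked against unloaded soleus, without overlap in either case (exact permutation p = 0.1 each, the smallest possible, 0.225 adjusted). In unloaded against control soleus it was at -0.29, with overlap (exact permutation p = 0.2, 0.257 adjusted). Pdhb itself had a signal of 1311 ± 172 in walked (SD, n = 2) and 1183 ± 74.4 in control soleus (n = 3), with a log2 fold change of 0.14 (limma adjusted p = 0.584), and -0.03 on its dimmer probe set. The subunits Pdha1, Dlat and Pdhx of the same complex were at 0.35, 0.33 and -0.71 there on their brightest probe sets. On their other probe sets Pdha1 was at -0.07 and Dlat at 0.33 and 0.03. The difference therefore depends on the partner and the probe set chosen. How often other pairs of genes show such a lack of overlap was not tested.

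The later steps turn the branched-chain acyl-CoA esters into acetyl-CoA, propionyl-CoA and acetoacetate. Of 27 genes listed for these steps 18 were tested, with 1 probe set per gene, the brightest. In walked against control soleus 2 fell and 0 rose, where 4.63% of 3154 genes fell and 3.74% rose, and the list's median log2 fold change was -0.19 against -0.11 over all genes. Both genes act on leucine. Ivd, isovaleryl-CoA dehydrogenase, had 728 and 660 in the walked pools, against 900, 1102 and 1219 in the control pools (log2 fold change -0.62 ± 0.15, limma adjusted p = 0.0337). Its other probe sets were at -0.36 and -0.27 and were not called. Auh, methylglutaconyl-CoA hydratase, had 482 and 451 in the walked pools, against 603, 707 and 777 in the control pools (-0.57 ± 0.14, limma adjusted p = 0.0353). In both genes every walked array lay below every control array, as in 27.6% of all tested probe sets. The same held for the uncalled genes Acaa2, Aldh6a1, Echs1, Hsd17b10 and Pcca on their brightest probe sets. For Hadhb and Hibadh every walked array lay above every control array, and the share of all tested probe sets where this was so was not counted. Both calls were lost without control pool 2 or 3 or either walked pool, with limma adjusted p up to 0.204 for Ivd and 0.203 for Auh, and that of Auh also without unloaded pool 1 (0.0528).

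The other 16 genes of these steps were not called in that comparison. Hsd17b10, Acadsb, Acat1, Acaa2, Echs1, Hadha and Hadh, which serve isoleucine, fatty acids or both, had log2 fold changes of -0.43, -0.15, -0.28, -0.28, -0.27, -0.08 and -0.45. On its dimmest probe set (D00512_at) Acat1 was at -0.06 (limma adjusted p = 0.919). It fell on another (D13921_s_at, -0.74, limma adjusted p = 0.0109), with 696 and 740 in the walked pools, against 1060, 1258 and 1277 in the control pools. That call was lost without walked pool 1 (0.0822) or 2 (0.0727). The valine enzymes Hibadh and Aldh6a1 were at 0.27 and -0.27, and the propionyl-CoA carboxylase subunits Pcca and Pccb at -0.23 and 0.07. The acyl-CoA dehydrogenases Acadm and Acads were at -0.13 and 0.00, and Hadhb, Abat and Ehhadh at 0.32, 0.44 and 0.60.

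In walked against unloaded soleus limma called 0 of the 18, where 1.74% of all genes fell and 2.35% rose. Of the 18, 7 reached an unadjusted p under 0.05, as did 17.4% of all tested probe sets. The list's median was -0.27 against -0.05 over all genes, and 14 of 18 were below 0. In unloaded against control soleus 1 of 18 rose and 0 fell, where 3.71% of all genes rose and 2.50% fell. This was Ehhadh, the bifunctional enzyme of peroxisomal fatty acid oxidation, with 67.4, 66.5 and 53.0 in the unloaded pools, against 16.9, 24.1 and 10.0 in the control pools (log2 fold change 1.96 ± 0.40, limma adjusted p = 0.0122). Its group means were 24.5 in walked, 62.3 in unloaded and 17.0 in control soleus, so it passed the signal filter at 25.8 only through the unloaded arrays. The call was lost with no filter (limma adjusted p = 0.0531) and without unloaded pool 1 (0.0613) or 2 (0.0608).

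**Figure D4:**
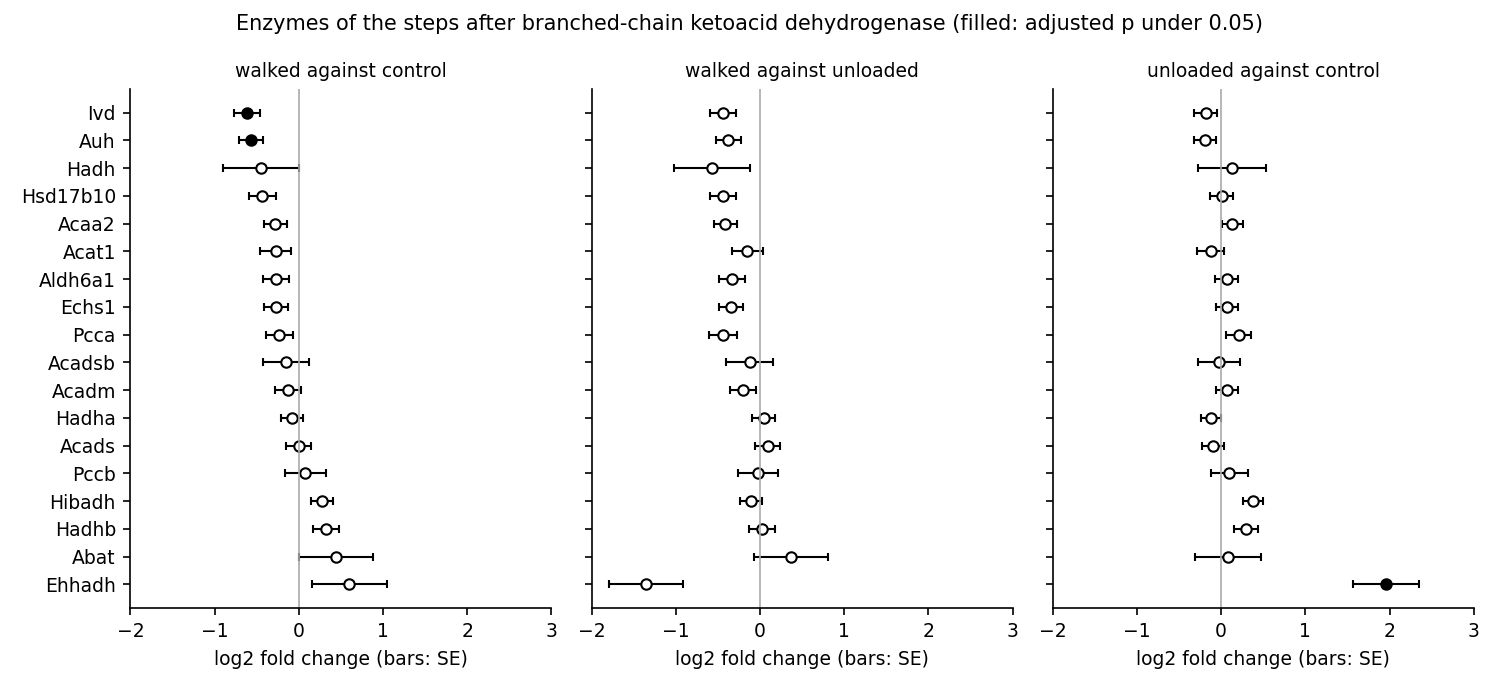
Log2 fold changes (points) with SE (bars) of the 18 tested genes that act after the branched-chain keto acid dehydrogenase complex, in the 3 comparisons. Filled points have a limma adjusted p under 0.05. Ivd and Auh are filled in walked against control soleus, and Ehhadh in unloaded against control soleus.

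Transport into the cell is the step before Bcat2. Of 13 transporter genes listed 2 were tested, the subunits of the large neutral amino acid exchanger. Slc3a2, the heavy chain, had 1070 and 1006 in the walked pools, against 445, 362 and 577 in the unloaded pools. It rose, with a log2 fold change of 1.20 ± 0.18 (limma adjusted p = 0.00269), and its other probe set rose by 1.43 ± 0.16 (adjusted p = 0.000205). In walked against unloaded soleus its direction was opposite to those of Bcat2 and Bckdhb, which were not called there. Against control the brighter probe set was at 0.62 in walked (adjusted p = 0.0560) and -0.57 in unloaded soleus (0.0605), while the other was called in both, at 0.89 and -0.54. The 0.89 was not called without walked pool 2 (0.0930). The -0.54 was not called in any fit that left out 1 array, with adjusted p between 0.0551 and 0.143. Slc7a5, the light chain that carries leucine, was at 0.38 ± 0.26 in walked against unloaded soleus (limma adjusted p = 0.504).

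Of 13 other aminotransferases and glutamate or glutamine enzymes 7 were tested, and limma called 0 on the brightest probe set in any of the 3 comparisons. In walked against control soleus 1 of the 7 reached an unadjusted p under 0.05, as did 24.7% of all tested probe sets. The other comparisons had 0 of the 7, where 17.4% (walked against unloaded) and 21.5% (unloaded against control) of all tested probe sets did. The 1 gene was Ampd1, the AMP deaminase of muscle, at 0.39 ± 0.18 (limma adjusted p = 0.201), with 932 and 1027 in the walked pools, against 818, 856 and 590 in the control pools. Its other probe set was at 0.83 ± 0.27 (limma adjusted p = 0.0766). Got1 and Got2, the aspartate aminotransferases, were at 0.19 and 0.17 in walked against control soleus on their brightest probe sets. Got2 was at -0.41 on its dimmer probe set (limma adjusted p = 0.165), so its sign differed between probe sets. On the brightest probe sets the alanine aminotransferase Gpt was at -0.01, glutamine synthetase Glul at 0.19 and glutamate dehydrogenase Glud1 at -0.20. Bcat1, the cytosolic branched-chain aminotransferase, was at 0.30 ± 0.72. Glul (0.62, adjusted p = 0.0389) and Glud1 (1.16, adjusted p = 0.0385) were each called higher on a dimmer probe set. The probe sets of Glul were all positive, from 0.15 to 0.62. Those of Glud1 differed in sign, with the remaining one at -0.34. Both calls were lost without control pool 2 or 3 or either walked pool, that of Glul also without control pool 1 or unloaded pool 1, and that of Glud1 also without unloaded pool 2, with limma adjusted p up to 0.229 and 0.211.

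Among the pyruvate and 2-oxoglutarate dehydrogenase complexes with their kinases and phosphatases, 10 of 15 genes were tested. In walked against control soleus 1 of 10 fell, where 4.63% of all genes did, and this was Pdhx, the E3-binding protein of pyruvate dehydrogenase, with 72.4 and 85.8 in the walked pools, against 113, 131 and 145 in the control pools (log2 fold change -0.71 ± 0.19, limma adjusted p = 0.0400). In unloaded against control soleus 1 of 10 rose, where 3.71% of all genes did, and this was the kinase Pdk4, a relative of Bckdk, with 2896, 3244 and 3422 in the unloaded pools, against 2030, 2653 and 1821 in the control pools (0.57 ± 0.15, limma adjusted p = 0.0384). The Pdhx call was lost without control pool 2 or 3, unloaded pool 1 or either walked pool (adjusted p up to 0.210), and that of Pdk4 without any 1 array other than control pool 2 (up to 0.116). The kinases Pdk1 and Pdk2 were at -0.62 (adjusted p = 0.0777) and -0.12 in walked against control soleus. Pdp1, a phosphatase of pyruvate dehydrogenase, was called on its dimmer probe set, higher in unloaded than in control (0.90) and lower in walked than in unloaded soleus (-1.05). The first was lost without control pool 3 or unloaded pool 1 or 2 (adjusted p up to 0.0659), and the second without walked pool 1 or unloaded pool 1 or 2 (up to 0.189).

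Of 15 genes linked to the regulation of this pathway 7 were tested, and 1 of 7 fell in unloaded against control soleus, where 2.50% of all genes did. This was the lipogenic factor Srebf1, with 50.1, 102 and 84.2 in the unloaded pools, against 159, 159 and 200.4 in the control pools (log2 fold change -1.19 ± 0.24, limma adjusted p = 0.0125). The nuclear receptors Esrra, Ppara, Ppard, Pparg and Nr3c1 and the kinase Mtor were not called in any of the 3 comparisons. Over all 6 lists, 3 of 44 tested genes were called for walked against control soleus (6.82%, against 8.37% of all genes in either direction). The other comparisons gave 1 of 44 (2.27%, walked against unloaded, against 4.09% of all genes) and 3 of 44 (6.82%, unloaded against control, against 6.21%), so the shares lay near or below those of all genes. The 3 in walked against control were 0 without either walked pool or control pool 2 or 3 and 1 without unloaded pool 1, and the 3 in unloaded against control were 1 without unloaded pool 1 or 2. The E2 and E3 subunits Dbt and Dld and the phosphatase Ppm1k of the complex, and the transcription factor Klf15, were not analysed here.

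Some genes followed a member closely over the 8 arrays, ranked by Pearson r of log2 signal among 3153 other genes. The r describes likeness only, since arrays of a group share their treatment. Nearest to Bcat2 were Mycbp2 (0.99), Pex5 (0.98) and F3 (0.97), and nearest to Bckdhb were Dync1i2 (0.99), Ap2s1 (0.99) and Tsc22d1 (0.98). Nearest to Bckdha were Tmem53 (0.97), Rraga (0.95) and Acaa2 (0.95), the last an enzyme of fatty acid oxidation from the list of later steps. Nearest to the dim Bckdk were RT1-A (0.98), Ap2a2 (0.98) and Gnptg (0.97).

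The arrays had median signals of 37.2 to 42.4, and log2 signals correlated at 0.949 to 0.963 within and 0.913 to 0.945 between groups. Control pool 3 stood apart on the first principal component, at -30.0 against -14.2 and -16.3 for the other controls. Markers of slow fibres, which make up most of the soleus, were bright, with Myh7 between 5146 and 8004, and albumin (Alb) was between 9.22 and 24.3. The summed signal of 6 slow fibre markers was 28220 to 31060 in walked, 22080 to 30110 in unloaded and 20560 to 23110 in control soleus, and 3 of them (Tnni1, Myl2 and Myl3) were called higher in walked against control. Of 6 leukocyte markers, summing to 1028 to 1076 in walked, 1263 to 1483 in unloaded and 1294 to 1315 in control soleus, 2 (RT1-Da and Cd74) were called lower. Limma called 0 of the tested markers of fast fibres (7), adipocytes (4), smooth muscle (5), endothelium (2), red cells (2), nerve (2) and liver (2) there. In walked against unloaded soleus the 7 fast fibre markers summed to 8565 to 9359 in walked and 11680 to 13570 in unloaded soleus, with Myh2 and Tnni2 called lower, and RT1-Da was called lower too. In unloaded against control soleus Fabp4 (adipocyte) and Cd48 (leukocyte) were called higher, and Tpm3 (slow fibre) and Tagln (smooth muscle) lower. The part of these shifts in the values of the 4 genes was not tested.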

How the data were processed

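The members and gene lists were chosen with earlier results of these data known. Soleus RNA pools from 3 groups were measured on 8 one-colour arrays. The deposited intensity values, 1 per probe set on a linear scale, come from MAS5 according to the submitters' processing notes. The sources used here do not give its version or scaling target. The algorithm subtracts a background estimate, which bears most on dim probe sets such as that of Bckdk. From these, each array was scaled to a 2% trimmed mean of 148.6, values under the 10th percentile (4.10) were set to it, and log2 was taken. Probe sets under the 40th percentile of mean signal (25.8) were left out. One model with 3 group levels covered all arrays (limma 3.58.1, R 4.3.3; eBayes with a trend, two-sided, 5 residual degrees of freedom, prior 6.00), and the procedure was checked on simulated data. The number of arrays limits the precision. The within-array differences and their exact permutation tests were added after the values were seen.

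Symbols came from the platform annotation through Entrez IDs and the gene table of GRCr8, which held 6985 of the 7006 probe sets with 1 symbol; 308 had several and 1426 none. Named were all member probe sets, called genes of 6 lists, a fixed set of others and the 3 genes most like each member; Ampd1, Bcat1, Pdhb, Pdp1 and the regulators that were not called were named after their values were seen. Pool numbers did not pair arrays (correlation of deviations -0.07 to 0.05 over 7 same-numbered pairs). At most 0.755% of probe sets had exactly equal deposited values in a pair of arrays. Alternatives were other scalings, floors, filters, variance models and array sets.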

Additional observations from a re-analysis of the deposited data

How the results depend on the processing

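With the pool number as a replicate block, a shared number only, limma called 0 member probe sets in walked against control soleus (2 without it), with Bcat2 at -1.11 and Bckdhb at -0.63, and 251 of all probe sets (476 without it). It called 5 pathway genes in unloaded against control (3 without it), 2 in walked against unloaded (1 without it), and for walked against control soleus 1 (3 without it). With no filter the counts were 0 members in walked against control, 228 and 216 probe sets in unloaded and walked against control, and 0 pathway genes in both, with Bcat2 at -1.10 and Bckdhb at -0.70. Without a trend there were 0 members and 0 pathway genes in walked against control and 243 and 211 probe sets in unloaded and walked against control. Fits of the groups compared alone gave 3 pathway genes for walked against unloaded, 2 for unloaded against control and 1 for walked against control soleus. The mean over a gene's probe sets gave 6 in unloaded against control and 2 in walked against unloaded. The causes were not tested.

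With 1 array left out, 105 to 503 probe sets were called in walked against control, 120 to 263 in walked against unloaded and 230 to 404 in unloaded against control soleus. The lowest counts came without walked pool 2 in the comparisons that use it and without unloaded pool 2 in the last. Called pathway genes numbered 0 to 4, 1 to 2 and 1 to 3 in the same order. Members numbered 0 to 2 in walked against control and 0 in the other comparisons. There Bcat2 lay between -1.41 and -0.78 and Bckdhb between -0.81 and -0.62. A walked group of 1 pool was assumed to vary like the other groups. Bckdha (J02827_g_at) in unloaded against control soleus lay between -0.15 and 0.14, and turned to -0.15 and -0.03 without control pool 1 or unloaded pool 1. All other log2 fold changes of members kept their sign under every alternative run, with Bckdk tested in 5 of the 8 fits without 1 array and under the signal filter in the others, as it also was with the filter at the 60th percentile.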
